A study of Mus musculus with 2 samples.

Results

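The 42 imprinted genes described here were taken from a fixed list of symbols and matched by their Ensembl identifiers to the rows of the count tables, which hold 43629 genes. Of the 42 genes, 41 were matched; Peg13 was not analysed here. They belong to 20 imprinted clusters or single imprinted loci. RNA with a poly(A) tail was sequenced in duplicate from wild-type E14 mouse embryonic stem cells, a blastocyst-derived line of 129/Ola background, with 1 library labelled P33 and 1 labelled P42. No allele, treatment or other genotype separated the libraries, the age label was the only label that differed, and each age label was held by 1 library. A difference between the libraries therefore rests on a single library for each age label, and p-values were not computed. The labels do not say whether the libraries came from separate cultures.

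Imprinted genes are transcribed mainly or wholly from the copy inherited from 1 parent. At many loci the choice is set by DNA methylation laid down in the egg or the sperm at an imprinting control region. That methylation is kept through early development by a small group of proteins while most of the genome is demethylated. Many imprinted genes act on fetal and placental growth, and several clusters pair a growth promoter from the paternal copy with a restraint from the maternal copy. In cultured embryonic stem cells imprints are known to be lost or changed at some loci, which is why the level of these genes is often looked at in such lines. The counts used here sum both parental copies, so which copy gave the reads was not measured; the parental copy named for each gene below is background knowledge from mouse tissues.

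Counts over all genes came to 40139219 for P33 and 39657578 for P42. Levels are given in CPM, read counts scaled to library size and adjusted by TMM, a trimmed mean of the log ratios between libraries, and 1 CPM stood for 42.2 counts in P33 and 37.8 in P42. The difference is the log2 ratio of P42 over P33, and its 95% interval covers counting error only. A gene was called higher or lower in P42 when its mean reached 1 CPM, the levels were 2-fold apart or more and equality lay outside the interval. All 16 pluripotency markers were at 1 CPM or more in both libraries, while of 17 fibroblast markers 5 were, and of 14 trophoblast markers 4. Of the 16 pluripotency markers 2 were called higher, Sox2 (1.03) and Klf4 (1.83), and 0 lower, against 5.07% and 9.54% of all genes. The log2 ratio was negatively correlated with the GC content of transcripts across genes (Spearman rho −0.39, a description over genes that share the same 2 libraries), and the chromosome medians ran from −0.57 for chromosome 15 to 0.66 for chromosome 1.

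Most of the imprinted genes were transcribed in these cells. Of the 41 matched genes, 31 were at 1 CPM or more in both libraries, against 29.8% of all rows and 54.0% of protein-coding genes. A further 2, Dio3 and Zim1, reached 1 CPM in P33 only, and 8 stayed under 1 CPM in both libraries. Together the matched genes made up 0.373% of the P33 counts and 0.324% of those of P42. In P33 25.99% of their counts came from Peg10, and 62.5% came from the 5 most abundant genes; in P42 the same 5 genes held 66.4%.

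**Figure D1:**
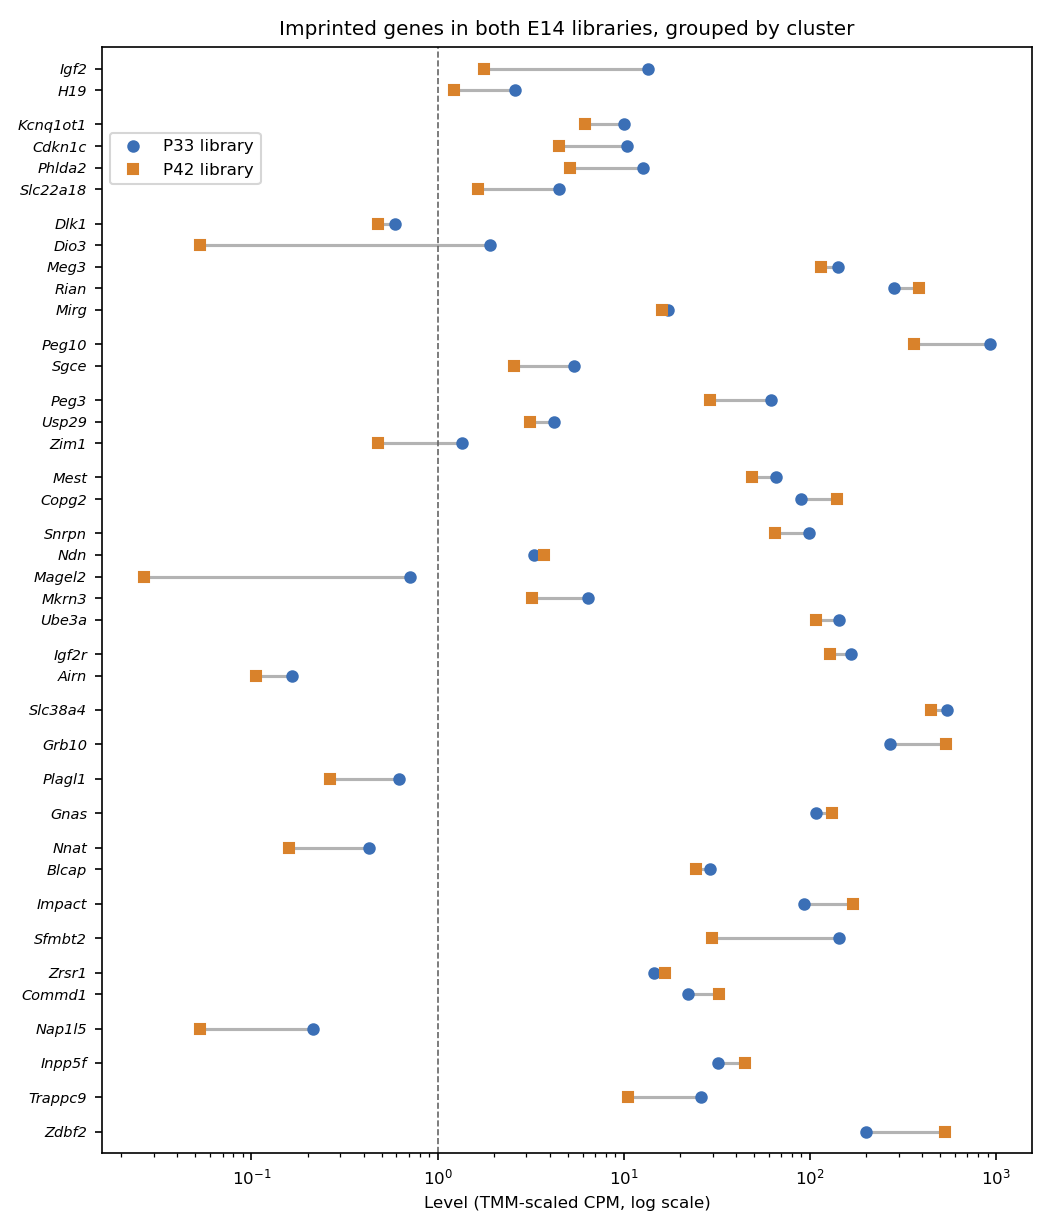
Level of each imprinted gene in TMM-scaled CPM (log axis) in the P33 library (circles) and the P42 library (squares), grouped by cluster, with a dashed line at 1 CPM; Rtl1 and Kcnk9, at 0 counts, are not drawn. Peg10 spans 364 to 924 CPM, the Igf2 and H19 pair lies between 1.22 and 13.5 CPM, and Grb10 and Zdbf2 lie farther right in P42.

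Between the libraries, 11 of the 31 imprinted genes past the 1 CPM minimum were called lower in P42, or 35.5%, against 9.54% of the 13737 genes past the same minimum. Of the same 31 genes 2 were called higher, or 6.45%, against 5.07% of all genes. Calls in either direction covered 14.6% of all genes. The log2 ratio was below 0 for 21 of the 31 imprinted genes and for 47.3% of all genes, and the median ratio was −0.41 for the imprinted genes against 0.04 for all genes. All 31 were at 1 CPM or more in both libraries, so none passed the minimum through P33 alone. The 11 genes had a median GC content of 55.0%, against 45.4% for the other 20, and with the trend on GC content and exon length removed 7 were called lower, against 7.27% of all genes; the part of base composition in the counts was not tested further.

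Genes of paternal expression and genes of maternal expression were both among those called lower, as the plot of ratios by expressed copy shows. Over all genes past the minimum 9.54% were called lower and 5.07% higher. Of 15 paternally expressed genes past the minimum, 6 were called lower and 1 higher, with a median log2 ratio of −0.59. Of 9 maternally expressed genes, 4 were called lower and 1 higher, with a median of −0.38. The summed level of the 23 matched paternal genes was 2193 CPM for P33 and 1718 CPM for P42, and that of the 11 maternal genes was 910 and 1198 CPM. Peg10, Slc38a4 and Zdbf2 were the 3 largest terms of the paternal sum, Peg10 leading in P33 and Zdbf2 in P42, and Rian and Grb10 the largest of the maternal sum. Of 5 genes with maternal expression in some tissues only, 1 was called lower, against 9.54% of all genes.

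**Figure D2:**
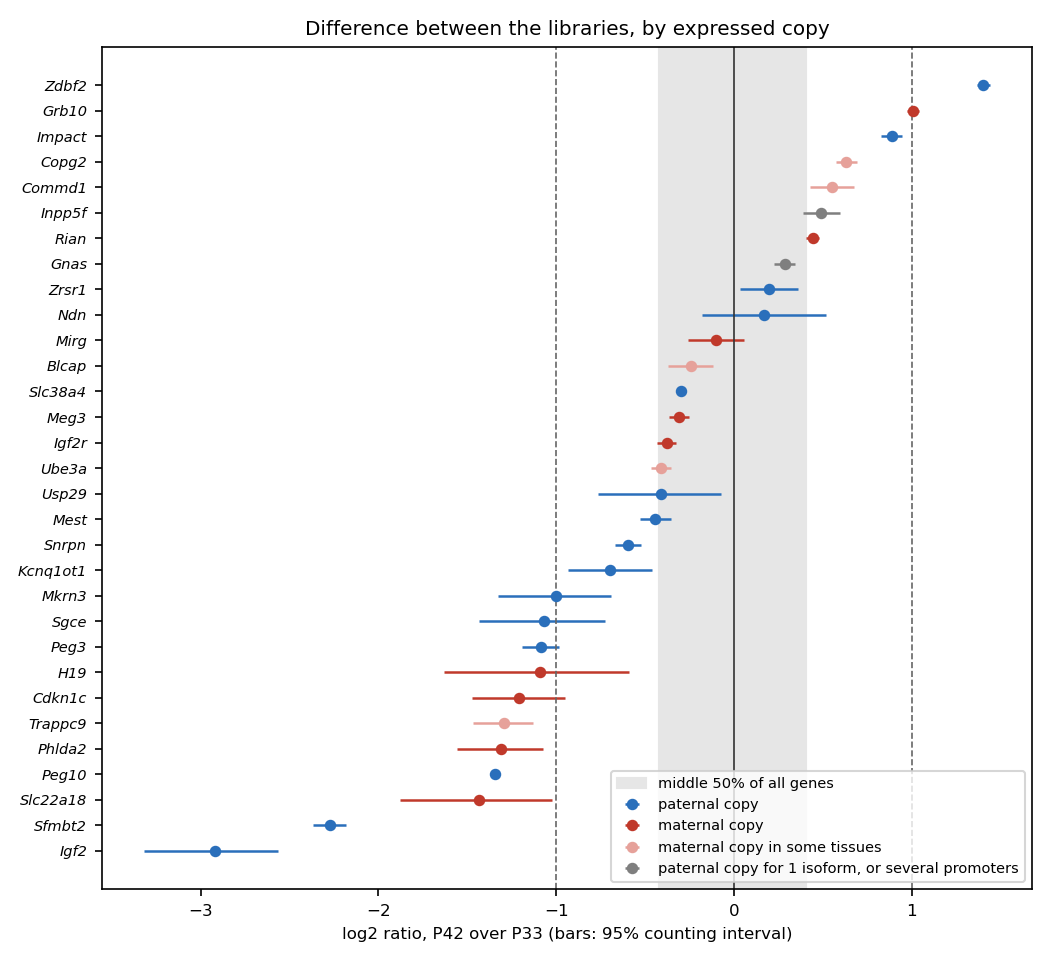
Log2 ratio of P42 over P33 for the 31 imprinted genes past the 1 CPM minimum, with 95% counting intervals, coloured by the parental copy known to be expressed; dashed lines mark 2-fold and the grey band holds the middle 50% of all genes. Points left of the lower dashed line include paternal genes (Igf2, Sfmbt2, Peg10) and maternal genes (Slc22a18, Phlda2, Cdkn1c), and Zdbf2 and Grb10 lie right of the upper one.

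The H19 and Igf2 pair on distal chromosome 7 was low in both libraries and lower in P42. Igf2 (chr7:142650766-142666816, minus strand, mm10) encodes a fetal growth factor and is expressed from the paternal copy; it had 570 counts in P33 and 67 in P42, which are 13.5 and 1.77 CPM. Its log2 ratio was −2.92 (−3.32 to −2.56), the lowest of the 31 genes. The noncoding RNA gene H19 (chr7:142575529-142578143, minus strand), which is expressed from the maternal copy and shares enhancers with Igf2, had 110 and 46 counts, or 2.61 and 1.22 CPM, and a log2 ratio of −1.09 (−1.63 to −0.59). Both genes of the pair, which in normal tissue come from opposite copies, were thus lower in the same library. With the GC and length trend removed Igf2 stood at −2.53 and H19 at −0.85, under 2-fold.

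In the adjoining Kcnq1 domain, where a paternally transcribed RNA, Kcnq1ot1, silences its neighbours in cis, Kcnq1ot1 and the maternally expressed Cdkn1c, Phlda2 and Slc22a18 had log2 ratios below 0. Kcnq1ot1 had 425 counts in P33 and 235 in P42, or 10.1 and 6.22 CPM, and its log2 ratio of −0.70 (−0.93 to −0.46) fell short of 2-fold. Cdkn1c, a cyclin-dependent kinase inhibitor gene, had 439 and 170 counts, or 10.4 and 4.502 CPM, and a ratio of −1.21 (−1.47 to −0.95). Phlda2, a restraint on placental growth, had 535 and 193 counts, or 12.7 and 5.11 CPM, with a ratio of −1.31 (−1.56 to −1.07). The transporter gene Slc22a18 had 188 and 62 counts, or 4.46 and 1.64 CPM, with a ratio of −1.43 (−1.88 to −1.02). Of the 4 genes 3 were called lower, against 9.54% of all genes. With the GC and length trend removed Kcnq1ot1 stood at −0.16, Cdkn1c at −0.77, which ended its call, Phlda2 at −1.01 and Slc22a18 at −1.12. Kcnq1ot1 is annotated as 1 exon of 93092 bases, so its level per kilobase, 0.0876 CPM, was the lowest of the 31 genes although its counts exceeded those of H19.

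Across H19-Igf2 and Kcnq1 together, 5 of 6 genes past the minimum were called lower, and 3 once the trend on GC and length was taken out, when H19 and Cdkn1c lost the call. Chromosome 7 as a whole had a median ratio of −0.09, and 13.3% of its tested genes were called lower; of 13 imprinted genes tested on chromosome 7, 7 were. Among the genes within 500 kb, 2 of 8 tested around H19-Igf2 and 3 of 13 around Kcnq1 were called lower, against 9.54% of all genes. Some of these genes lie near both clusters. Those called lower were Ascl2, Tspan32 and Osbpl5, all of which are listed as imprinted, on a list drawn up with earlier results of these data known. Ascl2 and Tspan32 were under 1 CPM in P42, so their means passed through P33. Ascl2, a trophoblast transcription factor gene, had 212 counts in P33 and 24 in P42, a ratio of −2.96. Neighbours not listed as imprinted ran from −0.86 for Tspan32os to 0.14 for R74862, and Ctsd, with 10177 and 5211 counts, stood at −0.81. Nap1l4 at 0.42 and Dhcr7 at 0.83, both listed, went the other way.

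Markers of other cell types also differed between the libraries. The summed level of the 17 fibroblast markers was 62.7 CPM (P33) and 42.1 CPM (P42), with 6 of the 17, among them Dcn, Lum and Postn, at 0 counts in both libraries. Of the 6 fibroblast markers past the minimum 1 was called lower, against 9.54% of all genes. It was Acta2, with 222 and 2 counts, which was under 1 CPM in P42, so its mean passed through P33. The summed level of 14 trophoblast markers, Ascl2 included, was 77.4 CPM (P33) and 59.98 CPM (P42), with 3 of the 6 past the minimum called lower, against 9.54% of all genes. Of these 3, Ascl2 and Krt7 reached 1 CPM in P33 only, which carried their means past the minimum, and the other is Krt8. Krt7 and Krt8 lie on chromosome 15, where 30.6% of tested genes were called lower. Eomes, with 138 and 245 counts (0.98), and Tfap2c (0.14) had ratios above 0, and Cdx2 and Elf5 had 5 and 28 counts in P33 and 1 and 2 in P42. Primitive endoderm markers summed to 647 and 894 CPM, and 7 of their 14 tested genes were called higher, against 5.07% of all genes. Of these 7, Sox17, with 24 and 94 counts, was under 1 CPM in P33, so its mean passed through P42. Of the 14 genes 1 was called lower, Hnf4a, with 569 and 59 counts (−3.10), against 9.54% of all genes. Mesoderm markers summed to 10.5 and 5.30 CPM. Of 3 tested 2 were called lower, Myh6 and Kdr, against 9.54% of all genes. Kdr, with 118 and 34 counts, was under 1 CPM in P42, so its mean passed through P33. Neural markers summed to 88.8 and 75.9 CPM. Of 7 tested 2 were called lower, Neurod1 (−2.76) and Ncam1 (−1.42), against 9.54% of all genes. In bulk RNA fewer cells of a type and less RNA per cell cannot be told apart, and the part of these cells in the imprinted genes was not tested.

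The Dlk1-Dio3 cluster on chromosome 12 was transcribed mostly as its maternal noncoding RNAs. Meg3 (chr12:109541001-109571726, plus strand) had 5984 counts in P33 and 4333 in P42, or 142 and 115 CPM. Rian (chr12:109603940-109661716, plus strand), a host of small nucleolar RNAs, had 11962 and 14568 counts, or 284 and 386 CPM, and Mirg (chr12:109729764-109749460, plus strand), a host of microRNAs, had 729 and 609 counts, or 17.3 and 16.1 CPM. All 3 were present in both libraries, and none was called. Their log2 ratios were −0.31 (−0.36 to −0.25) for Meg3, 0.44 (0.41 to 0.48) for Rian and −0.10 (−0.26 to 0.06) for Mirg, an interval that holds 0. With the GC and length trend removed Meg3 stood at −0.00 and Rian, the gene of lowest GC content among the 3, at 0.53. RefSeq places 1, 3 and 14 microRNA hairpins inside Meg3, Rian and Mirg on the same strand; the mature microRNAs were not measured by these libraries.

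The paternal protein-coding genes of the same cluster had few counts. Dlk1, which encodes a membrane protein related to Notch ligands, had 25 counts in P33 and 18 in P42, or 0.593 and 0.477 CPM. Rtl1, a gene derived from a retrotransposon and needed in the placenta, had 0 counts in both libraries, which allows a level of up to 0.0712 CPM in P33 and 0.0794 CPM in P42. Dio3, which encodes an enzyme that inactivates thyroid hormone, had 81 counts in P33 and 2 in P42, or 1.92 and 0.0530 CPM; its mean lay just under the minimum, and the ratio of −4.88 rests on the 2 counts in P42 (−8.25 to −3.28). Per kilobase of exon, each of the 3 maternal RNAs was above each paternal gene in both libraries. Among 6 neighbours tested within 500 kb, none was called, and their ratios ran from −0.70 to 0.22.

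The Peg10-Sgce pair on chromosome 6 held the gene with most counts of the set in P33; in P42 it was the fifth. Peg10 (chr6:4747306-4760517, plus strand), a paternally expressed gene derived from a retrotransposon and needed for the placenta, had 38932 counts in P33 and 13732 in P42, or 924 and 364 CPM, a log2 ratio of −1.34 (−1.37 to −1.32). Sgce (chr6:4674350-4747207, minus strand), the epsilon-sarcoglycan gene that starts next to Peg10 on the opposite strand, had 228 and 97 counts, or 5.41 and 2.57 CPM, a ratio of −1.07 (−1.43 to −0.73). Both genes of the pair were called lower, and the interval of Sgce holds the ratio of Peg10. With the GC and length trend removed Peg10 stood at −1.39 and Sgce at −1.16. The 4 neighbours tested, of which Casd1, Ppp1r9a and Pon3 are listed as imprinted, ran from −0.52 to −0.05, and none was called.

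The Peg3 cluster on proximal chromosome 7 also holds a pair of paternally expressed genes that start next to each other on opposite strands. Peg3 (chr7:6703892-6730431, minus strand), a zinc finger gene, had 2596 counts in P33 and 1094 in P42, or 61.6 and 28.97 CPM, a ratio of −1.09 (−1.19 to −0.99). Usp29 (chr7:6730578-6967219, plus strand), which encodes a deubiquitinase relative, had 177 and 119 counts, or 4.20 and 3.15 CPM, and its ratio of −0.41 (−0.76 to −0.07) was not called. Peg3 lost its call with the GC and length trend removed (−0.97). Zim1, the maternally expressed zinc finger gene of the cluster, had 57 and 18 counts, or 1.35 and 0.477 CPM, and lay under the minimum on average. Among 13 neighbours tested, mostly zinc finger genes, 2 were called lower, against 9.54% of all genes. These were Zscan5b at −2.17 and Zfp28 at −1.37, and Clcn4 stood highest at 0.89. Zscan5b, with 188 and 37 counts, was under 1 CPM in P42, so its mean passed through P33.

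The stretch between the Peg3 and Usp29 starts is shown because both genes are read outwards from it. It spans 146 bases (chr7:6730432-6730577, GRCm38, plus strand), is read here from the RefSeq promoter window of Usp29, and has its 5 CpG pairs in capitals.
Peg3 to Usp29: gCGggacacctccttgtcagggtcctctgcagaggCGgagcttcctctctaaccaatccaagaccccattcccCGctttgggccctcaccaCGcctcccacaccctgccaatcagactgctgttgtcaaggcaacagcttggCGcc
The stretch holds no match to TGCCGC, the core of the motif bound by the imprint-keeping zinc finger protein ZFP57, on either strand; this says only that these letters are not in this stretch.

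Sfmbt2 on chromosome 2 was among the genes that differed most. Sfmbt2 (chr2:10370510-10595253, plus strand), a Polycomb group gene expressed from the paternal copy in early embryo and placenta, had 6044 counts in P33 and 1119 in P42, or 143 and 29.6 CPM, a log2 ratio of −2.27 (−2.37 to −2.18). With the GC and length trend removed it stood at −2.30. Gm13261, a noncoding gene on the opposite strand whose body overlaps the Sfmbt2 start, had 294 and 43 counts, a ratio of −2.60 (−3.11 to −2.15). Of the other 4 neighbours tested Itih5 was called lower at −1.09, while Taf3, Kin and Atp5c1 ran from −0.03 to 0.58, and the chromosome median was 0.03.

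The Prader-Willi and Angelman region of chromosome 7 showed mixed ratios. Snrpn (chr7:59982495-60140219, minus strand), a paternally expressed gene for a splicing protein, had 4147 counts in P33 and 2460 in P42, or 98.4 and 65.1 CPM, a ratio of −0.59 (−0.67 to −0.52). With the GC and length trend removed Snrpn stood at −0.88. Its exons share 589 bases on the same strand with Gm38393, which had 2006 and 630 counts and a ratio of −1.51, so how reads were divided between the 2 annotations is uncertain. Ube3a (chr7:59228750-59311536, plus strand), a ubiquitin ligase gene that is maternally expressed in neurons, had 6064 and 4086 counts, or 144 and 108 CPM, a ratio of −0.41 (−0.47 to −0.35). The long noncoding RNA Snhg14, which runs from the Snrpn side to the end of Ube3a on the opposite strand, had 3455 and 2603 counts over its whole length, or 81.97 and 68.9 CPM. Its reads over Ube3a were not counted apart. The exons of both genes share 1803 bases on opposite strands, and with the strand setting unknown the reads of that stretch cannot be assigned.

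The intronless genes of the same region were low. Mkrn3, a ring finger gene, had 271 counts in P33 and 121 in P42, or 6.43 and 3.20 CPM, a ratio of −1.002 (−1.33 to −0.69) at the edge of the 2-fold threshold; with a prior count of 2 it was not called. Ndn, which encodes necdin, had 139 and 140 counts, or 3.30 and 3.71 CPM, and its interval held 0 (−0.18 to 0.52). Magel2, a relative of Ndn, had 30 counts in P33 and 1 in P42, or 0.712 and 0.0265 CPM. Of the 3 paternal genes, then, Ndn was level between the libraries within counting error while Mkrn3 and Magel2 had fewer counts in P42.

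Grb10 and Zdbf2 were the 2 imprinted genes called higher in P42. Grb10 (chr11:11930508-12038683, minus strand) encodes an adaptor that restrains insulin and IGF receptor signalling and is maternally expressed outside the brain. It had 11312 counts in P33 and 20391 in P42, or 268 and 539.96 CPM, a ratio of 1.01 (0.98 to 1.04), and scaling by total counts lowered it to 0.87, under 2-fold. Its 5 tested neighbours were all above 0, and 2 were called higher, against 5.07% of all genes. These were Ddc at 1.03, which is listed as imprinted, and 1700042O10Rik at 1.80. The latter, with 31 and 98 counts, was under 1 CPM in P33, so its mean passed through P42. It is an antisense gene within the body of Ddc, and with the strand setting unknown the 2 calls may not be separate. Cobl, also listed, stood at 0.61 and the chromosome median at 0.07.

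Zdbf2 (chr1:63273265-63314576, plus strand), a paternally expressed zinc finger gene, had 8430 counts in P33 and 19954 in P42, or 199.99 and 528 CPM, a ratio of 1.402 (1.36 to 1.44). Most of chromosome 1 was higher in P42, with 22.1% of its tested genes called higher, and the ratio of Zdbf2 less the chromosome median was 0.74, under 2-fold. Its 12 tested neighbours ran from −1.20 to 1.44 with a median of 0.50. The small RNA genes Snora41 and Gm26457 were called higher at 1.35 and 1.44, and Ino80dos was called lower at −1.20. Both small RNA genes lie within the body of Eef1b2, which had 38159 and 67684 counts (0.99). Whether their reads came from Eef1b2 transcripts was not tested. RefSeq places a promoter window of Zdbf2 upstream of the gene body annotated here.

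**Figure D3:**
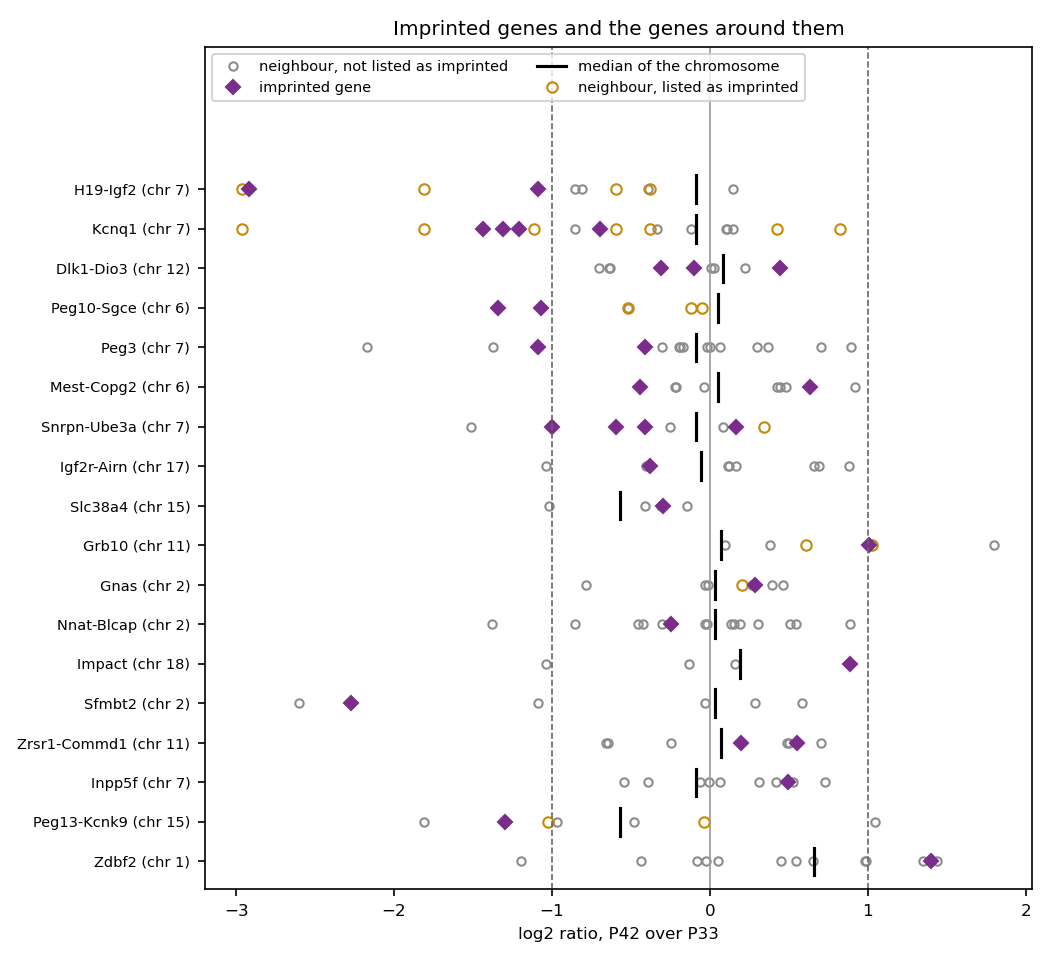
Log2 ratio of P42 over P33 for the imprinted genes (diamonds) and for other genes within 500 kb (open circles) in the 18 clusters with a gene past 1 CPM, with the chromosome median as a black bar and dashed lines at 2-fold. The diamonds of H19-Igf2, Kcnq1 and Peg10-Sgce lie left of most circles in their rows, while in the Zdbf2 row the bar is at 0.66.

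Over all clusters, genes within 500 kb of the imprinted genes were called in both directions. Of 139 neighbouring genes past the minimum, 15 were called lower, or 10.8%, and 5 higher, or 3.60%, against the 9.54% and 5.07% over all genes. Their median ratio was 0.00, with 49.6% of them below 0. A member called lower was found in 7 of the 20 clusters and one called higher in 2, and 11 clusters had no call.

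On chromosome 15, where 30.6% of tested genes were called lower and the median ratio was −0.57, the imprinted genes had ratios on either side of that median. Trappc9, a trafficking complex gene around Peg13, had 1094 counts in P33 and 399 in P42, or 25.95 and 10.6 CPM, a ratio of −1.30 (−1.47 to −1.13), and of −0.73 less the chromosome median. Slc38a4 (chr15:96994820-97055956, minus strand), a paternally expressed amino acid transporter gene, had 23013 and 16770 counts, or 545.95 and 444 CPM, a ratio of −0.30 (−0.33 to −0.27), so that it stood above its chromosome's median. Kcnk9, a potassium channel gene, had 0 counts in both libraries.

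The IGF2 receptor gene and the other loci were expressed without a call. Igf2r (chr17:12682406-12769664, minus strand), which encodes the maternally expressed receptor that clears IGF2, had 7031 counts in P33 and 4843 in P42, or 167 and 128 CPM, a ratio of −0.38 (−0.43 to −0.33). Airn, the paternal antisense RNA that silences Igf2r in later development, had 7 and 4 counts. Airn was thus near the limit of detection in both libraries while its target was expressed.

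Impact, a paternally expressed gene for a regulator of translation on chromosome 18, had 3894 counts in P33 and 6453 in P42, or 92.4 and 171 CPM, a ratio of 0.89 (0.83 to 0.95) just inside 2-fold. The Mest locus on chromosome 6 ran both ways, with Mest, a paternal hydrolase-fold gene, at 65.95 and 48.6 CPM (−0.44, −0.53 to −0.36) and Copg2, a coatomer subunit gene, at 90.03 and 139.6 CPM (0.63, 0.57 to 0.69). Their exons overlap by 912 bases on opposite strands, which is 23.1% of the exon bases of Mest, and the strand setting of the counting is not given in the sources used here. Gnas, the gene of the stimulatory G protein alpha subunit, whose promoters differ in the copy they are read from, stood at 107 and 131 CPM (0.28, 0.23 to 0.34) summed over its transcripts. With the GC and length trend removed Gnas stood at 0.93, Impact at 0.67, Mest at −0.59 and Copg2 at 0.45. None of these genes was called in either direction.

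Zrsr1, Nnat and Nap1l5 are paternally expressed genes that lie within another gene. Zrsr1, a paternal splicing factor gene within Commd1, stood at 14.6 and 16.7 CPM, and Commd1 at 22.0 and 32.3 CPM, with ratios of 0.20 (0.03 to 0.36) and 0.55 (0.43 to 0.68) and 412 exon bases shared on opposite strands. Nnat, a paternal neuronal gene inside an intron of Blcap, had 18 and 6 counts, while Blcap stood at 29.0 and 24.5 CPM (−0.24, −0.37 to −0.12). Inpp5f, an inositol phosphatase gene of which 1 isoform is paternal, was at 31.9 and 44.9 CPM (0.49, 0.39 to 0.60). Plagl1, a zinc finger gene that regulates other imprinted genes, had 26 and 10 counts, and Nap1l5, a histone chaperone relative within Herc3, had 9 and 2, while Herc3 had 677 and 672. Nnat and Nap1l5 were thus under 1 CPM in both libraries within genes that were expressed, and Zrsr1 and Commd1 were both expressed.

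Promoter sequence was looked at as a description that does not depend on the counts. RefSeq (GRCm38) gives 51 promoter windows, from 250 bases before to 50 after a start, for 33 of the 42 genes, and 13 of these windows, from 12 genes, hold TGCCGC on either strand. That is 25.5% of the windows, against 11.6% of 32851 windows over all genes. The windows of the imprinted genes had a median of 15 CpG pairs against 7 over all windows, and CpG pairs are part of the motif. The motif was found in windows of Grb10 and Zdbf2, called higher, of Igf2, called lower, of Meg3, Snrpn, Mest, Copg2 and Commd1, not called, and of Zim1, Nnat, Plagl1 and Nap1l5, which were under 1 CPM on average. GCCATCTT, a match to the motif of YY1, was in 1 window, of Ube3a, against 2.75% of all windows.

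Of the 51 windows 4 hold 2 or more matches, against 1.53% of all windows; they belong to Mest, Nap1l5 and Zdbf2, and the 250 bases before each start are shown so that an expressed, a near-silent and a differing gene can be set side by side. They are read 5′ to 3′ on the strand of the gene, and capitals mark TGCCGC or its reverse complement GCGGCA. The Mest stretch is chr6:30737803-30738052 on the plus strand, that of Nap1l5 chr6:58907127-58907376 on the minus strand and that of Zdbf2 chr1:63200108-63200357 on the plus strand.
Mest: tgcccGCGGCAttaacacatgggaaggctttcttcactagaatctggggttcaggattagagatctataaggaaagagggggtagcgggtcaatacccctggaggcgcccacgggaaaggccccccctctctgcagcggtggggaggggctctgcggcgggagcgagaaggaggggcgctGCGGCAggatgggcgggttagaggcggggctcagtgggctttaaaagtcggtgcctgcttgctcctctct
Nap1l5: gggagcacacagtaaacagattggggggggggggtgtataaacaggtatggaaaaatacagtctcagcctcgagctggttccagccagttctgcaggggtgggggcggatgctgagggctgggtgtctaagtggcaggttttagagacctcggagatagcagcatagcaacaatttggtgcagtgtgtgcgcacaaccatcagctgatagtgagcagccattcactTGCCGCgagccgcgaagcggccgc
Zdbf2: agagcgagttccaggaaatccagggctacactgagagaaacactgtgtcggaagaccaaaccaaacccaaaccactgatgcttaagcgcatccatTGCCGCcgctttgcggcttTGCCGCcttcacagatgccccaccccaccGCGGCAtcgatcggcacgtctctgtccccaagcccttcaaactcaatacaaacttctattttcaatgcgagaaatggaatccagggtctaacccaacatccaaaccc
The Mest stretch holds 2 matches on the reverse strand, that of Nap1l5 1 match, with its other one past the start, and that of Zdbf2 2 forward and 1 reverse. In P33 Mest stood at 65.95 CPM, Nap1l5 at 0.214 CPM and Zdbf2 at 199.99 CPM. The Zdbf2 stretch lies upstream of the gene body counted here, which starts at chr1:63273265. The other Zdbf2 window, chr1:63273019-63273318, holds 0 matches. Platr12 (chr1:63200313-63207967), whose body overlaps the end of the Zdbf2 stretch, had 193 counts in P33 and 179 in P42. Gpr1 (chr1:63182691-63214543), which is listed as imprinted, covers the whole stretch. It had 48 counts in P33 and 10 in P42, a ratio of −2.05 (−3.25 to −1.10), and its mean lay under the minimum. Which start the Zdbf2 reads came from was not measured. A match is a run of letters and not a bound site.

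Levels between genes are comparable only per length. In CPM per kilobase of merged exons, averaged over the libraries, Slc38a4 was highest at 116, followed by Peg10 at 96.5, Grb10 at 44.5, Snrpn at 37.9 and Zdbf2 at 28.8. The first 2 do not differ beyond their spread, since Peg10 ran from 54.5 to 139 and Slc38a4 from 104 to 128 between the libraries. Grb10, at 29.5 in P33 and 59.4 in P42, overlapped Peg10, Snrpn and Zdbf2 in the same way. In all, 11 of the 31 genes were at 10 or more and 5 were under 1, the latter being Ndn, H19, Sgce, Usp29 and Kcnq1ot1. Slc38a4 and Peg10 lay at percentiles 97.0 and 96.2 of all genes past the minimum, and H19 at percentile 11.9.

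Most genes on a list for the setting and keeping of imprints were expressed in both libraries, and the 7 that were called were all lower in P42. The list also holds Tet1, Tet2 and Tet3, whose products oxidise methylated cytosine, a step in its removal. Of 29 such genes 27 were at 1 CPM or more in both libraries and 28 passed the minimum, of which 7 were called lower and 0 higher, against 9.54% and 5.07% of all genes; the median ratio was −0.26 over the 28 genes, against 0.04 over all genes. Without a replicate no test stands behind the 0. The 7 were Dppa3 at −2.80, Ctcfl at −2.38, Dnmt3l at −2.13, Dnmt3b at −1.88, Ehmt2 at −1.40, Tet3 at −1.22 and Tet1 at −1.04. Ctcfl, with 136 and 23 counts, was under 1 CPM in the P42 library, so its mean passed through P33.

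The factors that bind imprinting control regions in early embryos differed less. Zfp57, which reads the methylated motif, was at 600.3 and 545.5 CPM, and its partner Trim28, a corepressor that recruits histone methylation, at 1826 and 1366 CPM. Dnmt1, the methyltransferase that copies methylation at replication, was at 365 and 279 CPM, and Uhrf1, which brings it to newly made DNA, at 419 and 341 CPM. Ctcf, which on the maternal copy insulates Igf2 from the enhancers shared with H19, was at 195 and 238 CPM. None of these 5 reached 2-fold. Dppa3, which guards methylation in the zygote, had 577 counts in P33 and 74 in P42, or 13.7 and 1.96 CPM, and Dnmt3l, the cofactor of methylation in germ cells, stood at 417 and 95.4 CPM. The part of these genes in the levels of the imprinted genes was not tested.

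**Figure D4:**
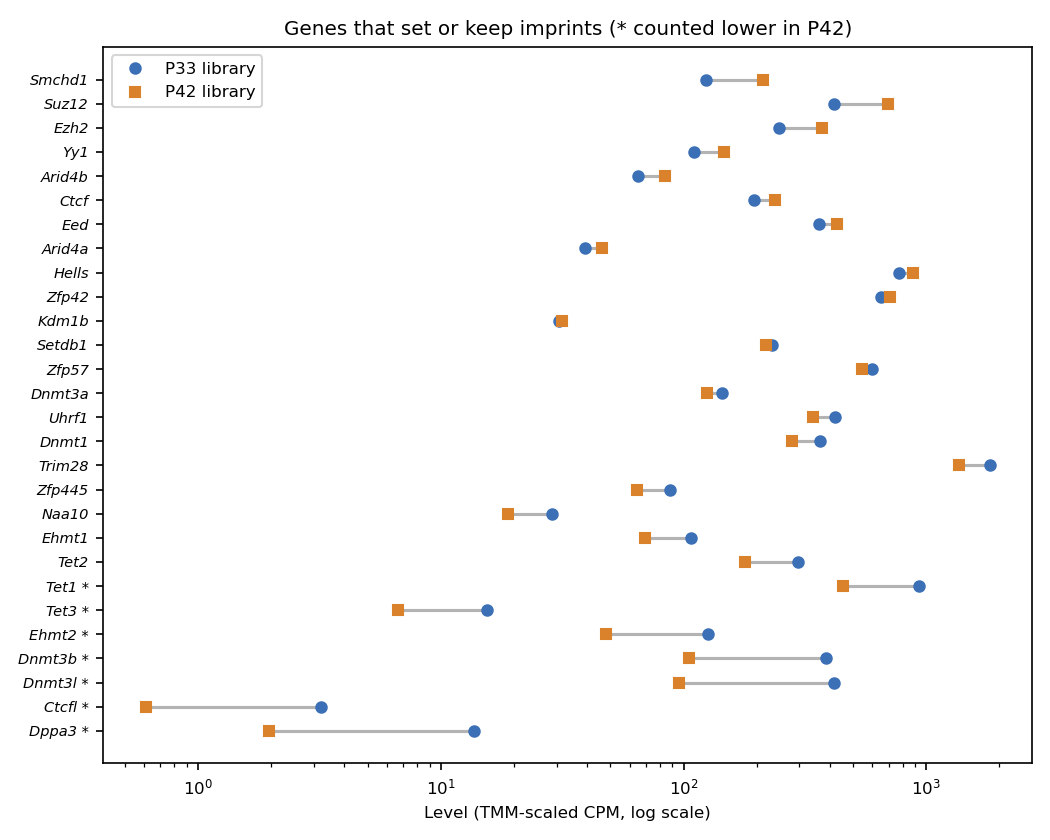
Level in TMM-scaled CPM (log axis) of the 28 genes past the minimum on the list for the setting and keeping of imprints. The list also holds Tet1, Tet2 and Tet3, whose products act in the removal of methylation. Circles are the P33 library and squares the P42 library, ordered by log2 ratio, and a star marks the 7 called lower in P42. Zfp57 lies at 545.5 CPM or more and Trim28 at 1366 CPM or more, and Dppa3 and Ctcfl at the bottom show the widest gaps.

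A second list held imprinted genes outside the 42. Of 47 matched genes 27 were at 1 CPM or more in both libraries, and of the 30 past the minimum 5 were called lower and 1 higher, against 9.54% and 5.07% of all genes, with a median ratio of −0.11. The genes called lower were Ascl2 at −2.96, Smoc1 at −2.47, Tspan32 at −1.81, Osbpl5 at −1.12 and Ago2, on chromosome 15, at −1.03, and Ddc was called higher at 1.03. Ascl2 and Tspan32 were under 1 CPM in the P42 library, so their means passed through P33. Imprinting of some genes of this list rests on single tissues, and the list was drawn up with earlier results of these data known.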

How the data were processed

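Poly(A) RNA of 2 E14 libraries was measured. The authors deposited a table of raw, whole-number counts for each library, with 1 row per Ensembl gene. The submitters' processing notes name STAR 2.4.2a, featureCounts 1.4.5-p1 and mm10. Which annotation release, strand setting and multi-mapping rule were applied is not given in the sources used here, so counts of overlapping genes are uncertain. Of 43629 identifiers, 42548 were found in GENCODE M21 (GRCm38, the assembly that mm10 names). TMM factors from edgeR 4.0.16 (R 4.3.3) were 1.050 for P33 and 0.952 for P42. To form the log2 ratio 0.5 was added as a prior count. The 95% interval (exact, Clopper-Pearson) and the floor of 3 counts cover counting error only, since PCR copies are not independent molecules.

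The 42 genes and the other lists were chosen with earlier results of these data known. All 42 are accounted for. On the list for the setting and keeping of imprints those called are named, with Zfp57, Trim28, Dnmt1, Uhrf1, Dppa3 and Ctcf, and in the second imprinted list those called. Other named genes, neighbours included, were chosen after their values were seen. The alternatives used size factors from DESeq2 1.42.0, total counts, other minimums, folds and prior counts, and a lowess fit (span 0.3, statsmodels 0.14.6) on GC content and on exon length, whose trend was taken out. Leaving out chromosomes 1 and 15, taking off the chromosome median and a 1000 kb window were added after seeing the data. The calls were tested on simulated data that held counting error and planted changes only. Those data had no other variation between libraries, so they cannot show how often such variation gives a call. Python 3.11.15 ran pandas 2.3.3, numpy 2.4.6, scipy 1.17.1 and matplotlib 3.10.9.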

Additional observations from a re-analysis of the deposited data

How the results depend on the processing

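Of the 11 genes called lower, the count was 11 with DESeq2 size factors, 12 with total counts, 10 with a prior count of 2, 13 at 1.5-fold, 16 with no filter, 10 without chromosomes 1 and 15 and 8 less the chromosome median. It was 7 with the GC and length trend removed, when Peg3, H19, Cdkn1c and Trappc9 fell short of 2-fold, 7 at a mean of at least 5 CPM and 2 at 3-fold, Igf2 and Sfmbt2. The count called higher was 2, and became 1 with total counts, 4 at 1.5-fold, 0 at 3-fold, 1 without chromosomes 1 and 15 and 0 less the chromosome median. The genes past the minimum numbered 32 with total counts, 39 with no filter, 25 at 5 CPM, 28 without chromosomes 1 and 15 and 31 otherwise. At 1.5-fold 16.1% of all genes were called higher and 18.9% lower, at 3-fold 1.07% and 3.82%, at 5 CPM 3.98% and 6.24%, and with no filter 4.48% and 9.74%. Without chromosomes 1 and 15 the shares were 4.07% higher and 8.91% lower. Less the chromosome median they were 3.36% higher and 9.86% lower. Over all genes total counts gave 466 higher and 1658 lower, against 697 and 1311. The median log2 ratio of −0.41 became −0.55 with total counts, −0.27 with the trend removed, −0.59 with no filter and −0.31 at 5 CPM; the median over all genes was −0.11 with total counts. Of the genes not called, Mirg stood at 0.08 and Ndn at −0.07 with the trend removed, and Slc38a4 at 0.27 less the chromosome median, each with the sign changed. The 31 genes detected were 31 without replicate 1 and 33 without replicate 2; a ratio needs both libraries, so leaving one out gives none. By the length of the longest transcript in place of merged exons Slc38a4, Peg10 and Grb10 stayed the 3 highest and Rian moved from rank 8 to 4. No paired analysis was possible because the labels name 1 group. With 1 library for each age label, a difference between P33 and P42 cannot be told apart from a difference between any 2 libraries.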
